A study of Drosophila melanogaster with 40 samples.

Results

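The nuclear genes of respiratory complex I were followed in legs of male Drosophila melanogaster. They were taken as the protein-coding features whose symbol starts with ND-, which gave 40 genes of 23932 features in the table, 13968 of them protein-coding. Of these, 34 are the widely expressed genes and 6 are paralogs named after one of them with L or L and a digit added, such as ND-51L1, ND-51L2, ND-24L, ND-B14.5AL and ND-20L. Poly(A) RNA of leg pools from 15 flies each was sequenced in 40 libraries. The 10 groups of 4 pools cover 2 strains. Hsp70-null flies carry Df(3R)Hsp70A and Df(3R)Hsp70B in a w1118 background, which removes the 6 major heat-inducible Hsp70 genes, and w1118 is the control strain with both clusters in place. In each strain, flies were sampled at day 7 after 2 hours of exercise in rotating tubes, at day 7 rested, at day 23 after 19 days of training in the same device, at day 23 untrained, and at day 47 untrained. Each strain is a single stock, so the deletions and any other difference between the stocks cannot be told apart.

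Complex I (NADH:ubiquinone oxidoreductase) is the entry point of the respiratory chain. Its peripheral arm takes electrons from NADH and passes them along a chain of iron-sulfur clusters to ubiquinone, and its membrane arm pumps protons. The core subunits that carry out catalysis are made partly from nuclear genes (the peripheral arm) and partly from mitochondrial DNA (the membrane arm), and the accessory subunits, all nuclear, surround them and are needed for assembly and stability. Insect muscle is rich in mitochondria, and the legs hold tubular muscle together with cuticle, fat, nerve and blood cells. By their mammalian homologs, the 34 genes are 7 core subunits, 8 accessory subunits of the peripheral arm, 17 of the membrane arm, the mitochondrial acyl carrier protein ND-ACP, which is found in both arms, and ND-MLRQ, whose homolog NDUFA4 is now assigned to complex IV in mammals.

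The 16 day 7 libraries held 21955858 to 29215993 counts in total, the 16 of day 23 held 22329878 to 30076080, and the 8 of day 47 held 35144736 to 39313671, so depth and the oldest age cannot be told apart. The deleted Hsp70 genes other than Hsp70Bb had 11 counts in all 20 Hsp70-null libraries and 1748 in the 20 w1118 libraries. Hsp70Bb itself had 1283 counts in Hsp70-null and 1149 in w1118 libraries, and so gave no check of the strain. Tubular leg muscle genes (Act79B, TpnC41C and Act57B) were counted in every library, with at least 5064 counts each. In 3 libraries genes of the testis stood out, as described with the paralogs.

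All 34 widely expressed genes passed the filter on low counts, which left 12939 features to test. Levels are given as CPM, counts scaled to a common library size with TMM, and, where genes are compared with each other, as CPM per kilobase of exon. Per kilobase, ND-MLRQ was highest at a mean of 956 over the 40 libraries and ND-B8 lowest at 8.49. ND-51, whose homolog NDUFV1 binds NADH and flavin, followed at 707, and ND-AGGG was second lowest at 19.6. The other 30 genes lay between 64.8 (ND-B18) and 480 (ND-23). The reads of ND-MNLL cannot be assigned with certainty: CG45089 covers all of its exons on the same strand and had 100% of its count in each library. Exons of ND-MWFE share 15.2% of their bases with Nrk.

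The summed level of the 34 genes set the 2 strains apart at the oldest age. In Hsp70-null legs it averaged 10270 ± 1245 CPM at day 7 after exercise, 9789 ± 798 at day 7 rested, 7284 ± 860 at day 23 after training, 7919 ± 908 at day 23 untrained and 7896 ± 446 at day 47 (SD, n = 4 each). In w1118 legs it averaged 10160 ± 403, 9273 ± 549, 7373 ± 526, 8251 ± 1269 and 5943 ± 589 CPM in the same order. The 4 Hsp70-null libraries at day 47 (7908, 7669, 7493 and 8515 CPM) were all above the 4 w1118 libraries (6197, 6480, 5978 and 5115 CPM). At the 2 earlier ages the strains overlapped. A sum over bulk tissue does not separate fewer cells of a type from less RNA per cell, and that holds for every level below.

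**Figure D1:**
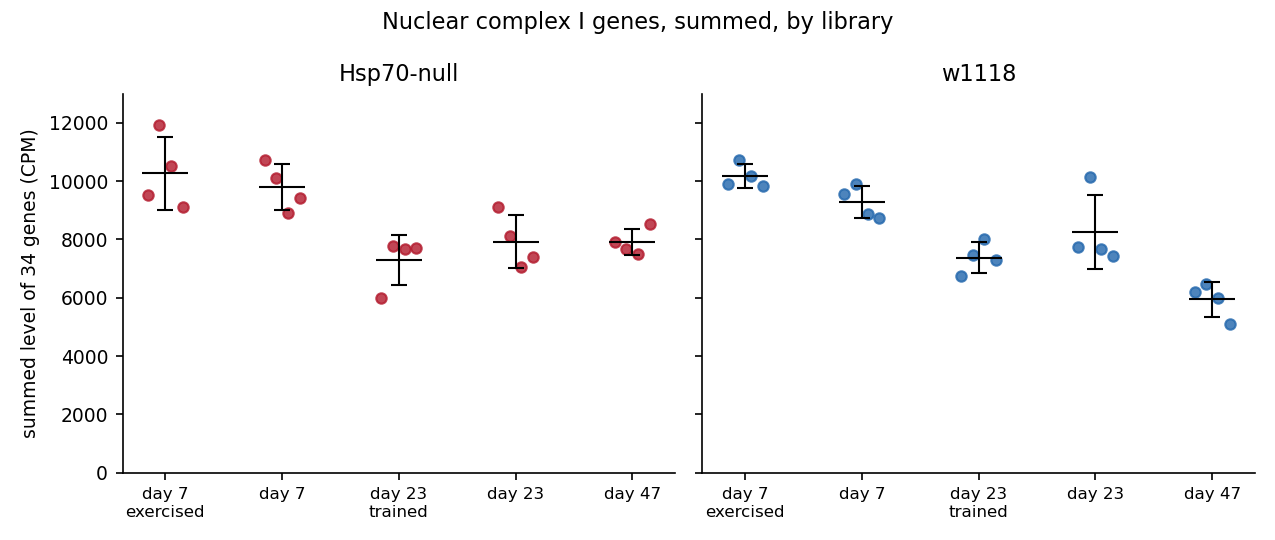
Summed level of the 34 widely expressed complex I genes (CPM) in each of the 40 libraries, with Hsp70-null on the left and w1118 on the right. Points are libraries, and black bars give mean and SD of 4 pools. At day 47 the Hsp70-null libraries lie between 7493 and 8515 CPM and the w1118 libraries between 5115 and 6480 CPM.

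The first comparison asked how these genes change with age in each strain. In w1118, 32 of the 34 were called lower at day 47 than at day 7 and 0 higher by edgeR's quasi-likelihood test (Benjamini-Hochberg adjusted p under 0.05 over all 12939 features), where 18.5% of all features were called lower and 19.2% higher. Their median log2 fold change was -0.81, against 0.07 over all features, and in 33 of the 34 the 4 day 47 libraries lay below the 4 day 7 libraries, where 17% of all features did so. In Hsp70-null, 21 of the 34 were called lower and 0 higher, against 14.9% of all features lower and 14% higher. The median there was -0.44, against -0.02 over all features, and 22 of 34 did not overlap, against 12.9% of all features. All 21 called in Hsp70-null were among the 32 called in w1118. CPM rest on the scaled library size, which itself differed between ages. It was 0.804 to 0.954 of the total count in Hsp70-null at day 7 and 1.08 to 1.16 at day 47. In w1118 it was 0.873 to 0.976 and 1.08 to 1.14 at the same ages. Falls per total count are therefore smaller than those in CPM. For Hsp70-null the values do not show a fall of the complex I sum per total count. Calls without such scaling were not tested.

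The members with the strongest evidence in w1118 were mostly accessory subunits. ND-19, the homolog of the membrane-arm subunit NDUFA8, had 57.8, 55.8, 56.9 and 41.9 CPM at day 47, against 135, 140, 118 and 116 CPM at day 7. In Hsp70-null it had 59.6, 64.3, 64.4 and 63.5 CPM at day 47, against 141, 140, 110 and 118 CPM at day 7. The ages did not overlap in either strain, and ND-19 fell by 1.26 in w1118 (SE 0.13, adjusted p = 3.27e-09) and by 1.01 in Hsp70-null (SE 0.13, adjusted p = 3.84e-07) on the log2 scale.

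ND-B22 (NDUFB9), also of the membrane arm, had 102, 104, 100 and 85.8 CPM at day 47 in w1118, against 186, 190, 178 and 174 CPM at day 7. Its log2 fold change was -0.90 in w1118 (edgeR adjusted p = 5.72e-09). ND-B17.2 (NDUFA12) of the peripheral arm averaged 107 CPM at day 47 and 243 CPM at day 7 in w1118, a log2 fold change of -1.18 (edgeR adjusted p = 8.32e-09). ND-ACP, which also serves mitochondrial fatty acid synthesis, changed by -0.85 in w1118 (edgeR adjusted p = 1.02e-08) and by -0.72 in Hsp70-null (edgeR adjusted p = 3.72e-07). Each of the 3 was called lower in both strains.

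Among the lowest p-values in Hsp70-null were also ND-PDSW, ND-42 and ND-B18, homologs of the membrane-arm subunits NDUFB10, NDUFA10 and NDUFB7. ND-PDSW had 96.2, 102, 107 and 106 CPM at day 47, against 226, 217, 160 and 187 CPM at day 7, and its log2 fold change was -0.94 (edgeR adjusted p = 2.81e-07). ND-42 changed by -0.80 (edgeR adjusted p = 5.69e-07) and ND-B18 by -0.99 (edgeR adjusted p = 5.69e-07). The 2 ages did not overlap for any of the 3, and w1118 legs also had less of each at day 47, with log2 fold changes of -1.07, -0.86 and -1.16 for ND-PDSW, ND-42 and ND-B18.

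**Figure D2:**
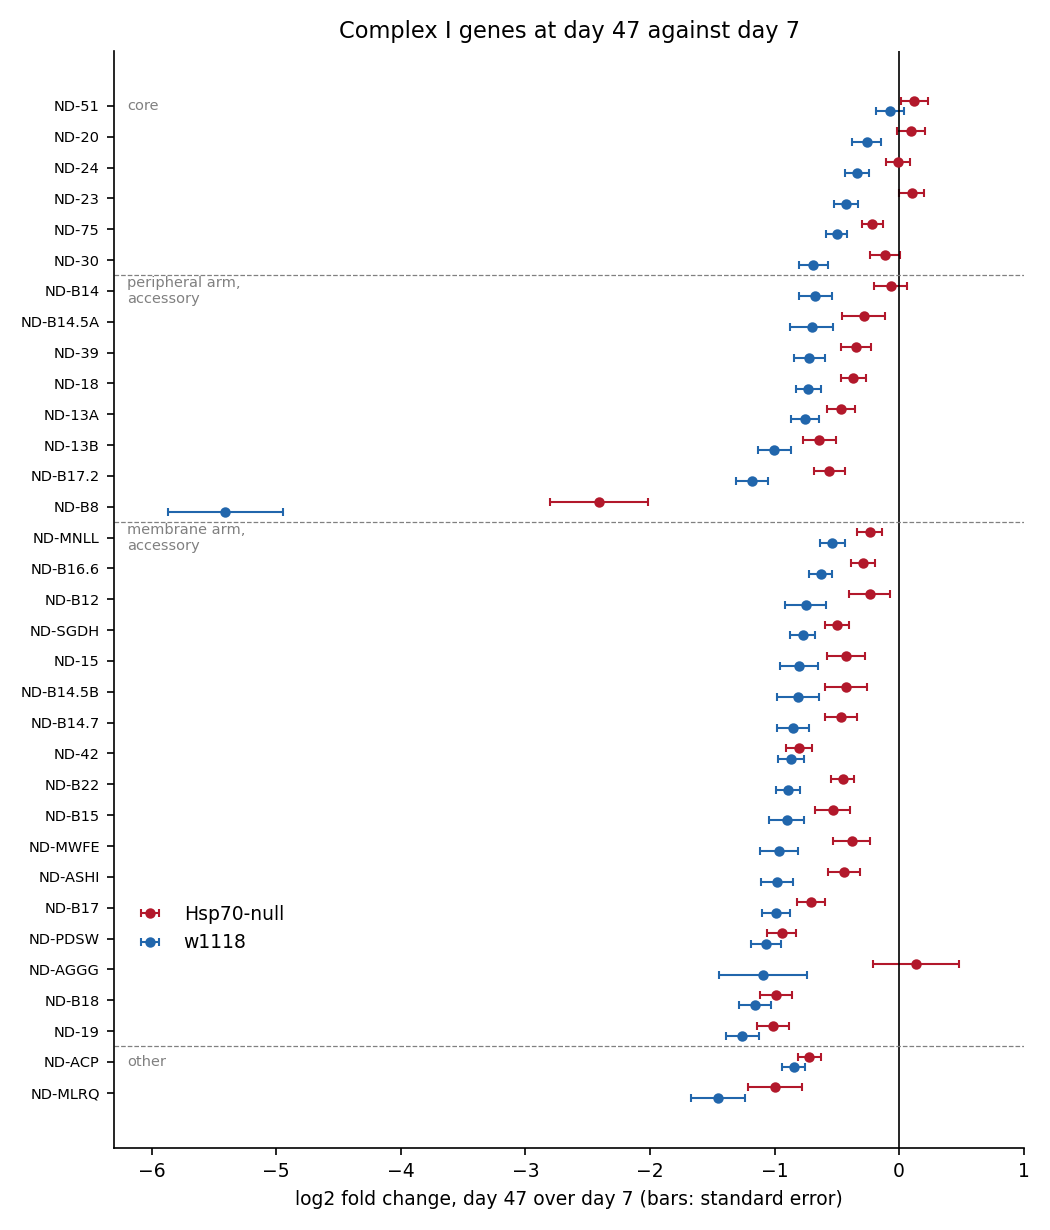
Log2 fold change of 33 of the 34 genes, day 47 over day 7, in Hsp70-null (red, upper point) and w1118 (blue, lower point), with standard errors, sorted within core subunits, accessory subunits of each arm, and the other 2 genes (ND-ACP and ND-MLRQ). All w1118 values drawn are below 0, and ND-B8 lies far from the rest in both strains, at -2.41 in Hsp70-null and -5.41 in w1118.

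The core subunits, which bind the flavin and the iron-sulfur clusters, had the smallest median change with age. In w1118 their median log2 fold change at day 47 against day 7 was -0.43, with 5 of 7 called lower. The 8 accessory subunits of the peripheral arm had a median of -0.74 and the 17 of the membrane arm a median of -0.90, with all 8 and all 17 called lower. In Hsp70-null the medians were -0.01 for the core subunits (1 of 7 called lower), -0.42 for the peripheral accessory subunits (6 of 8) and -0.45 for the membrane accessory subunits (12 of 17).

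The 2 members not called in w1118 were both core subunits. ND-51 (NDUFV1) averaged 936 CPM at day 47 and 986 CPM at day 7, a log2 fold change of -0.08 (SE 0.11, edgeR adjusted p = 0.627). ND-20, whose homolog NDUFS7 carries the last iron-sulfur cluster before ubiquinone, averaged 310 CPM at day 47 and 372 CPM at day 7, a log2 fold change of -0.26 (SE 0.12, edgeR adjusted p = 0.0787).

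The core genes accordingly made up more of the summed complex I level in older legs. Their share in Hsp70-null was 45.7 ± 2.61% at day 7, 51.4 ± 1.41% at day 23 and 53.7 ± 1.47% at day 47, and in w1118 it was 42 ± 1.62%, 48.6 ± 2.11% and 51.6 ± 0.888% at the same ages (SD, n = 4 each). In both strains the 4 day 47 libraries lay above the 4 day 7 libraries. Exons of the core genes span 819 to 2634 bases in all and those of the accessory genes of the 2 arms 460 to 1618 bases. Across the 34 genes the w1118 change had a Spearman rho of 0.49 with exonic length and of 0.60 with mean level, descriptions only, since the genes share libraries and class goes with length. Over all features these were -0.11 and -0.23. Over all features the median change was between -0.01 and 0.15 in each of 5 length classes, against -0.95 to -0.50 for the members.

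The steps between ages differed in their calls between the strains. In Hsp70-null, 22 of 34 were called lower at day 23 than at day 7 (median -0.41, with 9.89% of all features called lower), and 1 was called lower at day 47 than at day 23 (median -0.02, with 1.96% of all features called lower). In w1118, 9 of 34 were called lower at day 23 than at day 7 (median -0.25, with 6.21% of all features called lower), and 31 were called lower at day 47 than at day 23 (median -0.54, with 7.31% of all features called lower). The 2 steps of a strain share its day 23 libraries. Whether a single step differed between strains was not tested; the day 47 to day 7 difference was, as given below.

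Single members differed in which step was the larger. ND-19 averaged 127, 74.6 and 63.0 CPM in Hsp70-null legs and 127, 83.5 and 53.1 CPM in w1118 legs at days 7, 23 and 47, and ND-B18 averaged 93.6, 56.8 and 47.1 CPM in Hsp70-null legs and 103, 66.7 and 46.0 CPM in w1118 legs. ND-23, whose homolog NDUFS8 carries iron-sulfur clusters next to ND-20, averaged 410, 416 and 440 CPM in Hsp70-null legs and 372, 418 and 277 CPM in w1118 legs. ND-23 fell in w1118 at day 47 against day 23 by 0.60 (SE 0.10, edgeR adjusted p = 7.89e-05) on the log2 scale, and so did ND-B17.2 by 0.72 (edgeR adjusted p = 0.000156), ND-13B (NDUFA5) by 0.74 (edgeR adjusted p = 0.000187) and ND-42 by 0.57 (edgeR adjusted p = 0.000247).

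Single libraries weighed on these counts. The Hsp70-null count at day 23 against day 7 was 13 without replicate 1 of day 7, 10 without replicate 2 of day 7 (a library with testis transcripts), 10 without replicate 3 of day 23 and 11 without replicate 4 of day 23. The w1118 count for the same step was 19 without replicate 2 of day 23, the library with the highest complex I sum of its group (10140 CPM, against 7427 to 7755 in the other 3). Without that library, 22 in place of 31 were called lower in w1118 at day 47 against day 23. The w1118 medians were then -0.415 for the earlier step and -0.391 for the later step, so the contrast between steps leaned on that library. With the compared groups fitted alone, 10 in place of 31 members were called lower in w1118 at day 47 against day 23, and 9 in place of 22 in Hsp70-null at day 23 against day 7.

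The second comparison asked how the strains differ at each age. At day 47, 21 of 34 genes were called higher in Hsp70-null than in w1118 and 0 lower, where 9.93% of all features were called higher and 9.49% lower. The median log2 difference was 0.37, against -0.03 over all features, and in 27 of 34 all Hsp70-null libraries were above all w1118 libraries, against 13.2% of all features. All 7 core subunits were among the 21, with 6 of 8 accessory subunits of the peripheral arm and 8 of 17 of the membrane arm.

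ND-23 had 435, 454, 415 and 456 CPM in Hsp70-null legs at day 47, against 279, 299, 271 and 258 CPM in w1118 legs. Its log2 difference was 0.67 (SE 0.10, edgeR adjusted p = 4.87e-06). ND-20 had 473, 473, 457 and 520 CPM in Hsp70-null, against 315, 343, 303 and 281 CPM in w1118, a log2 difference of 0.63 (SE 0.12, edgeR adjusted p = 0.000141). The strains did not overlap for either gene.

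ND-24, homolog of the iron-sulfur subunit NDUFV2 that sits beside ND-51, had 319, 329, 297 and 330 CPM in Hsp70-null, against 220, 231, 199 and 208 CPM in w1118, a log2 difference of 0.57 (SE 0.10, edgeR adjusted p = 3.48e-05). ND-75 (NDUFS1), the largest core subunit, averaged 807 CPM in Hsp70-null legs and 609 CPM in w1118 legs, a log2 difference of 0.41 (edgeR adjusted p = 0.000533). ND-51 differed by 0.48 and ND-30, homolog of NDUFS3, by 0.41. Of the largest differences among the accessory genes, ND-AGGG (NDUFB2) had 13.5, 17.9, 23.4 and 23.4 CPM in Hsp70-null, against 7.47, 9.27, 9.71 and 4.20 CPM in w1118, and its log2 difference was 1.35 (SE 0.35, edgeR adjusted p = 0.00535). The count of 21 was 13 without Hsp70-null replicate 4 and 13 without w1118 replicate 4 of day 47.

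At day 7, 1 of 34 genes was called, where 25.8% of all features were called in either direction. No gene was called with 1 sign at all 3 ages. The count was 0 without w1118 replicate 2 of day 7, and it was 2 without Hsp70-null replicate 3, where ND-20 was among the calls. The summed level of the 7 core subunits was nonetheless higher in Hsp70-null at day 7 without overlap (4464 CPM, against 3887 CPM in w1118). The same held in exercised flies (4870 and 4078 CPM) and at day 47 (4239 and 3065 CPM). At day 23 the core sums overlapped (4066 and 3992 CPM).

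At day 23, 4 of 34 were called lower in Hsp70-null and 0 higher, against 9% of all features lower and 8.78% higher, with a median log2 difference of -0.14. They were the membrane-arm genes ND-B14.5B (NDUFC2; -0.57, edgeR adjusted p = 0.0168), ND-PDSW (-0.34, edgeR adjusted p = 0.0400) and ND-ASHI (NDUFB8; -0.36, edgeR adjusted p = 0.0454) and the peripheral-arm gene ND-39 (NDUFA9; -0.35, edgeR adjusted p = 0.0439). The strains overlapped in all 4. None was called without w1118 replicate 2 or without replicates 2, 3 or 4 of Hsp70-null, 1 without w1118 replicate 1 and 2 without w1118 replicate 3.

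The third comparison tested whether the change from day 7 to day 47 differed between strains. The difference of the 2 log2 fold changes (Hsp70-null minus w1118) was positive in all 34 genes, with a median of 0.37 and a range of 0.00 to 3.00, against a median of -0.02 over all features. It was called in 2 of 34, both positive, against 1.16% of all features. These were ND-B8 (3.00, SE 0.56, edgeR adjusted p = 0.002) and ND-23 (0.53, SE 0.14, edgeR adjusted p = 0.0463). ND-23 lost the call in 17 of 23 alternatives, with adjusted p-values of 0.00546 to 0.125, and ND-B8 kept it in all 23, with adjusted p-values of 4.42e-05 to 0.0431. At an unadjusted p under 0.05, 18 of the 34 passed, against 19.6% of all features. The 34 genes share these libraries and varied together within groups, so their shared sign is not a set of separate observations.

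ND-B8 stood apart from the other members in level and in change. It lies on chromosome 2L (4454626 to 4455207, plus strand, Ensembl BDGP6.54), has 460 bases of exon, and its homolog NDUFA2 is a small accessory subunit of the NADH-oxidising end of the peripheral arm. Hsp70-null legs had 5.62, 8.53, 2.69 and 2.45 CPM at day 7, 3.02, 2.50, 2.43 and 1.52 CPM at day 23, and 0.520, 0.830, 0.758 and 1.51 CPM at day 47. In w1118 legs it had 6.93, 6.31, 5.64 and 6.17 CPM at day 7, 3.02, 6.14, 2.07 and 2.79 CPM at day 23, and 0.271, 0.121, 0.0682 and 0.114 CPM at day 47. All 4 Hsp70-null libraries at day 47 were above all 4 of w1118, and in both strains all day 47 libraries were below all day 7 libraries.

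The day 47 values of ND-B8 rest on 23, 34, 29 and 58 counts in Hsp70-null and on 11, 5, 3 and 5 counts in w1118. Its log2 fold change at day 47 against day 7 was -2.41 in Hsp70-null (SE 0.40, edgeR adjusted p = 2.38e-05) and -5.41 in w1118 (SE 0.46, edgeR adjusted p = 7.02e-11). Against day 23 it was -1.39 in Hsp70-null (edgeR adjusted p = 0.0380), the single member called there, and -4.57 in w1118 (edgeR adjusted p = 3.09e-08). Between strains at day 47 it was 2.62 (SE 0.42, edgeR adjusted p = 1.80e-05). The call in Hsp70-null at day 47 against day 23 was lost without any 1 of replicates 1, 2 or 3 of either age.

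**Figure D3:**
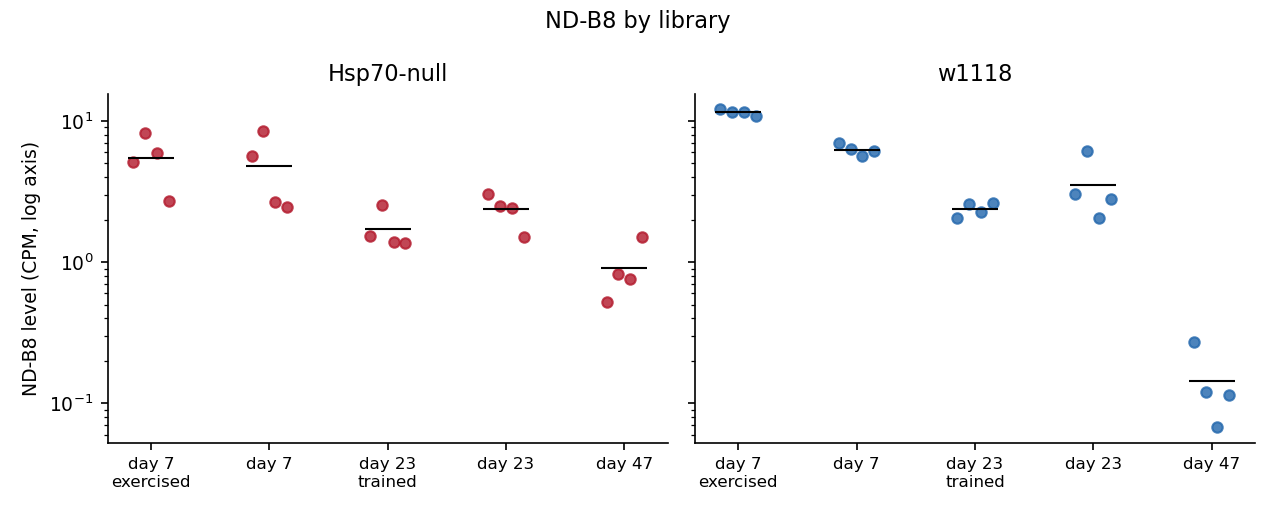
ND-B8 level (CPM, log axis) in each library, with Hsp70-null on the left and w1118 on the right. Points are libraries and black bars are means of 4 pools. The w1118 day 47 libraries lie between 0.0682 and 0.271 CPM and the Hsp70-null day 47 libraries between 0.520 and 1.51 CPM.

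The fourth comparison concerned exercise and training. After 2 hours of exercise at day 7, 0 of 34 genes were called in either strain by edgeR or DESeq2, where edgeR called 0.0464% of all features in Hsp70-null and 0.402% in w1118. At an unadjusted p under 0.05, 0 genes passed in Hsp70-null, against 15.3% of all features, and 1, ND-B8, in w1118, against 16.5%, and with the compared groups fitted alone ND-B8 was called in w1118. All 34 values were positive in w1118 (median 0.15), and 23 of 34 were positive in Hsp70-null (median 0.03). In w1118, 8 of 34 genes had all exercised libraries above all rested ones, against 2.93% of all features. The summed flight muscle markers were also higher in exercised w1118 legs without overlap (208 CPM, against 144 CPM in rested legs) and the neuronal markers lower without overlap (747 CPM, against 947 CPM in rested legs); their part in these values was not tested. ND-B8 had 12.1, 11.5, 11.6 and 10.9 CPM in exercised w1118 legs, against 6.93, 6.31, 5.64 and 6.17 CPM in rested ones, and its log2 difference of 0.88 (SE 0.38) did not pass (edgeR adjusted p = 0.214). The effect of exercise was called different between strains in 0 of the 34 by edgeR or DESeq2 (0 at an unadjusted p under 0.05, where 15.9% of all features passed), against 8.27% of all features by edgeR; that share was 0% without the 3 libraries with testis transcripts.

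Exercised flies of the 2 strains differed in 7 of 34 genes, against 20.2% of all features (8.95% higher, 11.2% lower). In all, 2 were higher in Hsp70-null, against the median of -0.15, among them ND-51 (1315 and 1037 CPM on average in Hsp70-null and w1118; 0.34, edgeR adjusted p = 0.0296). Lower in Hsp70-null were ND-15 (NDUFS5; -0.56, edgeR adjusted p = 0.00837), ND-B14.5B (-0.61, edgeR adjusted p = 0.0105), ND-ASHI (-0.41, edgeR adjusted p = 0.0225), ND-PDSW (-0.37, edgeR adjusted p = 0.0247) and ND-B8 (-1.07, edgeR adjusted p = 0.0422). ND-ASHI, ND-B14.5B and ND-PDSW were thus called lower in Hsp70-null in exercised flies and at day 23. The count was 4 without Hsp70-null replicate 1, without Hsp70-null replicate 3 or without w1118 replicate 1, 3 without w1118 replicate 2, and 1 without the 8 libraries that carried testis, eye or accessory gland transcripts.

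After 19 days of training, 0 of 34 genes were called in either strain by edgeR or DESeq2, where edgeR called 0.0464% of all features in Hsp70-null and 0% in w1118. At an unadjusted p under 0.05, 0 genes passed in Hsp70-null and 8 in w1118, against 5.26% and 6.47% of all features. All 34 values were below 0 in w1118 (median -0.21), and 32 of 34 in Hsp70-null (median -0.13). These medians are smaller in size than the spread of the untrained libraries: the w1118 sum was 7373 ± 526 CPM in trained and 8251 ± 1269 CPM in untrained legs, with overlap. Each median also leaned on a single untrained library. It was -0.058 in w1118 without untrained replicate 2, and -0.039 in Hsp70-null without untrained replicate 1. Trained flies of the 2 strains differed in 0 of 34 genes by edgeR or DESeq2 (2 at an unadjusted p under 0.05, where 26.8% of all features passed), against 15.6% of all features. The effect of training was called different between strains in 0 by edgeR or DESeq2 (1 at an unadjusted p under 0.05, where 3.59% of all features passed), against 0% of all features by edgeR.

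Within a group the members varied together. After group means were removed from log2 levels, the correlation of each gene with the mean of the other 33 over the 40 libraries was 0.63 (ND-51) to 0.97 (ND-30), with a median of 0.89. These values describe libraries that share a scaling, and carry no test. Counts of members with the same sign, or passing the same threshold, are therefore not counts of separate observations. The SD of a gene within groups had a median of 0.17 on the log2 scale, with ND-B8 at 0.50 and ND-AGGG at 0.49.

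The other nuclear genes of oxidative phosphorylation moved in the same direction. Of 35 genes of complexes II to V, 34 were called lower at day 47 than day 7 in w1118 (median -1.02) and 32 in Hsp70-null (median -0.65), and 20 were called higher in Hsp70-null than in w1118 at day 47 (median 0.40). The shares of all features called in the same ways were 18.5%, 14.9% and 9.93%, in that order. Complex I made up 26.5 ± 1.02% of the summed level of complexes I to V at day 7, 30.1 ± 0.243% at day 23 and 32 ± 0.867% at day 47 in Hsp70-null, and 25.2 ± 0.734%, 28.8 ± 0.480% and 30.6 ± 0.349% in w1118. Genes that feed ubiquinone by other routes were mixed: the glycerophosphate oxidase Gpo1 fell in both strains (-1.37 in Hsp70-null, -1.43 in w1118), as did Etf-QO (-0.42 and -0.29), and the dihydroorotate dehydrogenase Dhod rose (0.44 and 0.39).

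Assembly factors had medians nearer 0. Of 9 assembly factors, 4 were called lower at day 47 than day 7 in w1118 and 0 higher (median -0.37), and 4 lower and 1 higher in Hsp70-null (median -0.02). Of all features, 18.5% were called lower and 19.2% higher in w1118, and 14.9% lower and 14% higher in Hsp70-null. CIA30 fell in both strains, by 0.45 in w1118 and by 0.30 in Hsp70-null, and so did sicily, by 0.37 in w1118 and by 0.42 in Hsp70-null. The 6 regulators of mitochondrial gene expression summed to 245 CPM at day 47 and 267 CPM at day 7 in w1118, with no overlap. In Hsp70-null their sums were 269 CPM at day 47 and 279 CPM at day 7, with overlap. Single regulators went in different directions. TFAM, which packages mitochondrial DNA, fell by 0.48 in w1118 and by 0.56 in Hsp70-null. Spargel (srl), the fly PGC-1 homolog, rose in w1118 by 0.80 (edgeR adjusted p = 0.00292) and had a value of 0.47 in Hsp70-null (edgeR adjusted p = 0.0827).

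The mitochondrially encoded subunits had other values than the nuclear ones. At day 47 all 7 mt:ND genes had values below 0 for Hsp70-null against w1118 (median -0.60), with 1 called lower, mt:ND2, which averaged 28.1 CPM in Hsp70-null legs, against 73.3 CPM in w1118 legs (-1.38, SE 0.41, edgeR adjusted p = 0.0149). Against day 7, 5 of 7 were called lower in Hsp70-null (median -0.98), and in w1118 1 was called lower (mt:ND4, -0.59) and 1 higher (mt:ND2, 1.02). The strain difference in this change was below 0 in all 7 and called in 0 (edgeR adjusted p of 0.147 to 0.697). Of all features, 9.49% were called lower in Hsp70-null than in w1118 at day 47. Against day 7, 14.9% were called lower in Hsp70-null, and 18.5% lower and 19.2% higher in w1118. The libraries were poly(A)-selected, and how selection acted on mitochondrial transcripts was not tested.

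The ratio of the summed mitochondrially encoded level to the summed nuclear level at day 47 was 0.338 ± 0.0754 in Hsp70-null (0.242 to 0.418) and 0.584 ± 0.0601 in w1118 (0.533 to 0.657), with no overlap (SD, n = 4 each). At day 7 it was 0.509 ± 0.146 in Hsp70-null and 0.508 ± 0.130 in w1118, and at day 23 it was 0.340 ± 0.0744 in Hsp70-null and 0.357 ± 0.0544 in w1118. The strains overlapped at both earlier ages. The mitochondrially encoded sum itself overlapped between strains at day 47 (1853 to 3559 CPM in Hsp70-null, 3117 to 4257 CPM in w1118). The nuclear sum did not.

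**Figure D4:**
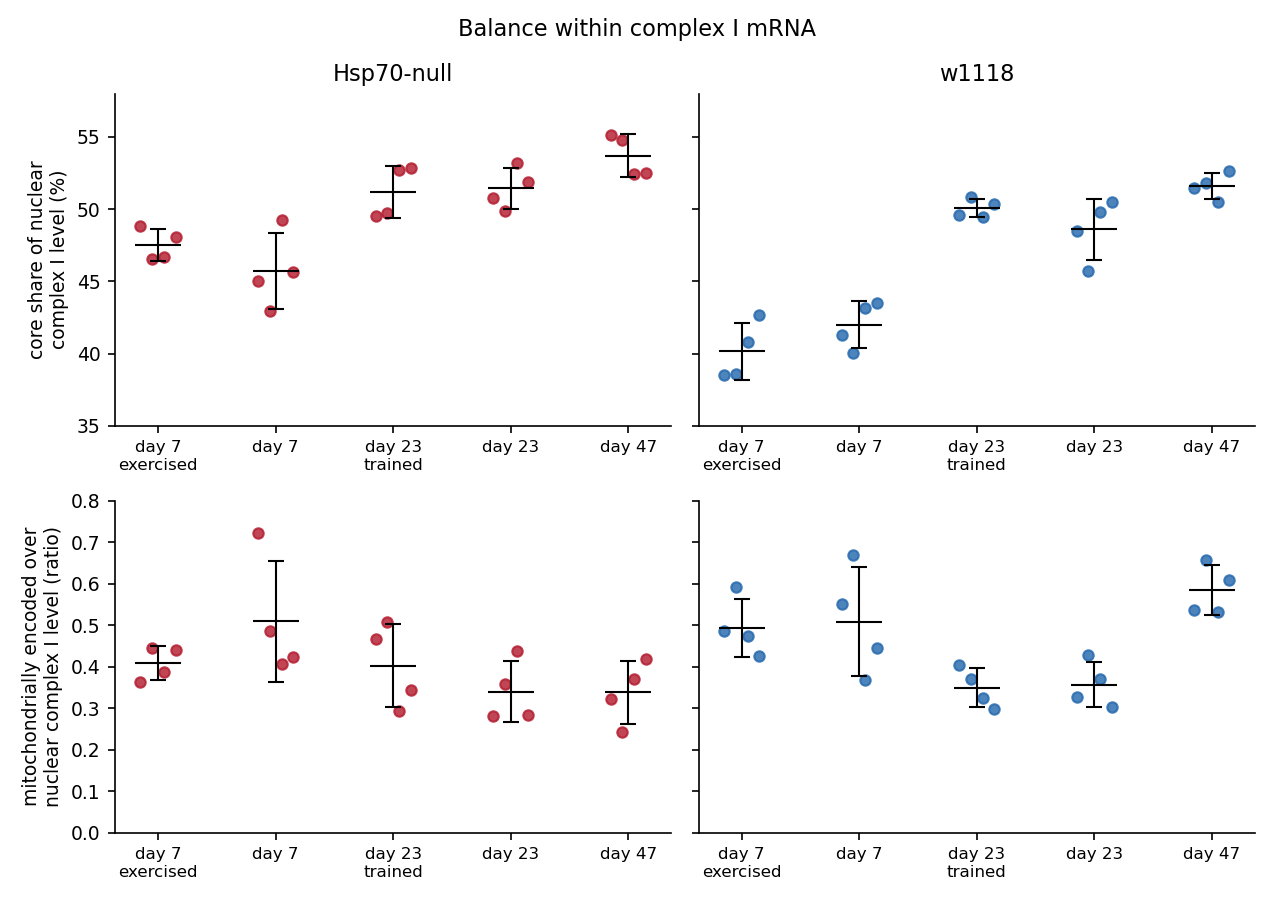
Share of the 7 core subunits in the summed nuclear complex I level (percent, top; the axis starts at 35) and ratio of the summed mitochondrially encoded to the summed nuclear complex I level (bottom), by library. Hsp70-null is on the left and w1118 on the right, and black bars give mean and SD of 4 pools. The core share is higher at day 47 than at day 7 in both strains, and the ratio at day 47 is 0.242 to 0.418 in Hsp70-null and 0.533 to 0.657 in w1118.

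Muscle transcripts moved with the complex I genes. All 12 sarcomere genes (Mhc, sls, bt and others) were called lower at day 47 than day 7 in w1118 (median -1.22) and 10 of 12 in Hsp70-null (median -0.56), and 6 of 12 were called higher in Hsp70-null than w1118 at day 47 (median 0.40). Their summed level was 19060 to 22690 CPM at day 47 and 25380 to 38550 CPM at day 7 in Hsp70-null, and 14310 to 15920 CPM at day 47 and 26830 to 39640 CPM at day 7 in w1118. The 3 tubular leg muscle genes were all called higher in Hsp70-null at day 47, with sums of 2041 ± 206 CPM in Hsp70-null legs and 1194 ± 70.1 CPM in w1118 legs (SD, n = 4 each). No sarcomere or leg muscle gene was at 0 in any library. Of all features, 18.5% were called lower with age in w1118 and 14.9% in Hsp70-null, and 9.93% were called higher in Hsp70-null at day 47.

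Set against muscle transcripts, complex I differed between strains and ages in other ways, depending on the muscle genes used. The ratio of the complex I sum to the sarcomere sum was 0.385 ± 0.0351 in Hsp70-null and 0.398 ± 0.0287 in w1118 at day 47, with overlap, and 0.336 ± 0.0403 in Hsp70-null and 0.288 ± 0.0423 in w1118 at day 7 (SD, n = 4 each). In w1118 all 4 ratios at day 47 (0.355 to 0.418) were above those at day 7 (0.250 to 0.331), so the complex I sum was higher relative to the sarcomere sum. In Hsp70-null the ages overlapped (0.338 to 0.415 at day 47, 0.278 to 0.371 at day 7). Over the sum of the 3 leg muscle genes, the ratio was 3.90 ± 0.430 in Hsp70-null and 4.98 ± 0.523 in w1118 at day 47, with overlap (3.51 to 4.50 and 4.32 to 5.46), and 3.30 ± 0.574 in Hsp70-null and 2.91 ± 0.435 in w1118 at day 7, with overlap. At day 23 it was 4.27 ± 0.611 in Hsp70-null and 5.57 ± 0.233 in w1118, with no overlap (SD, n = 4 each). In w1118 all 4 of these ratios at day 47 were above those at day 7 (2.52 to 3.30). In Hsp70-null the ages overlapped (3.51 to 4.50 at day 47, 2.66 to 3.96 at day 7).

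Markers of other tissues also differed. The sum of 5 digestive enzymes of the gut was 1574 to 5230 CPM at day 47 and 133 to 1095 CPM at day 7 in Hsp70-null, and 723 to 14310 CPM at day 47 and 15.0 to 938 CPM at day 7 in w1118, with 4 of 5 called higher with age in w1118 and none of the 5 at 0 in any library. Of 5 neuronal genes, 4 were called lower at day 47 than day 7 in w1118 and 1 in Hsp70-null, with sums of 485 to 668 CPM at day 47 and 688 to 788 CPM at day 7 in Hsp70-null, and 409 to 766 CPM at day 47 and 811 to 1054 CPM at day 7 in w1118; none was at 0. The 3 flight muscle genes (Act88F, fln and TpnC4) summed to 34.1 to 90.6 CPM at day 47 and 88.0 to 190 CPM at day 7 in Hsp70-null, and to 17.6 to 49.1 CPM at day 47 and 133 to 159 CPM at day 7 in w1118, with 2 called lower with age in Hsp70-null, 3 in w1118, and none at 0. Of 4 blood cell genes, 2 were called higher in Hsp70-null than in w1118 at day 47. Of 4 fat body genes tested, 1 was called lower in that comparison. There, 9.93% of all features were called higher and 9.49% lower. With age, 18.5% of all features were called lower and 19.2% higher in w1118, and 14.9% lower in Hsp70-null. Eye and accessory gland genes varied within groups, with eye sums of 2.01 to 702 CPM in Hsp70-null legs and 2.82 to 20.2 CPM in w1118 legs at day 47 and accessory gland sums of 0.0784 to 8.11 CPM in Hsp70-null legs and 0.137 to 2.12 CPM in w1118 legs. Lsp2 and apolpp of the fat body list and the opsin ninaE were counted in all libraries, whereas the accessory gland gene Acp26Aa was at 0 in 17 of 40. The part of these tissues in the complex I values was not tested.

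The 6 paralogs were near the floor in most libraries. Such L-named copies of mitochondrial genes are known in flies as testis-expressed. In 37 libraries their summed level was 0.163 to 1.96 CPM, and in 3 it was 43.3 (Hsp70-null day 7 replicate 2), 17.5 (w1118 day 7 exercised replicate 1) and 18.7 CPM (w1118 day 23 trained replicate 1). Each of the 6 was higher in all 3 of those libraries than in any of the other 37.

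In the 3 libraries, in the order given, ND-24L had 272, 65 and 58 counts, ND-51L1 had 204, 49 and 184, ND-B14.5AL had 109, 59 and 45, ND-20L had 103, 19 and 37, and ND-51L2 had 73, 86 and 62. In the other 37 together ND-24L had 28 counts, ND-B14.5AL 25, ND-20L 32, ND-51L2 57 and ND-51L1 180. ND-24L, ND-B14.5AL and ND-20L were at 0 in 28, 29 and 29 of those 37. Even in the 3 libraries a paralog had at most 3.90% of the count of its widely expressed relative (ND-24L against ND-24), and in the other 37 at most 0.185% (ND-B14.5AL against ND-B14.5A).

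The testis markers were high in the same 3 libraries. Their sum over 29 genes was 715 to 1772 CPM there and 159 to 306 CPM in the other 37, and 23 of the 29 were higher in all 3 than in any other library. These 3 libraries had been marked by that sum (over 3 times its median), so their high markers follow from the choice. Of the 6 paralogs, 2 passed the filter on low counts. ND-51L1 was called higher in Hsp70-null than w1118 at day 7, where 15.8% of all features were (4.92, edgeR adjusted p = 0.0232), and its strain difference in the effect of exercise was called as well (-7.55, edgeR adjusted p = 0.0197). Without Hsp70-null day 7 replicate 2 the day 7 value of ND-51L1 was not called (edgeR adjusted p = 0.783).

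**Figure D5:**
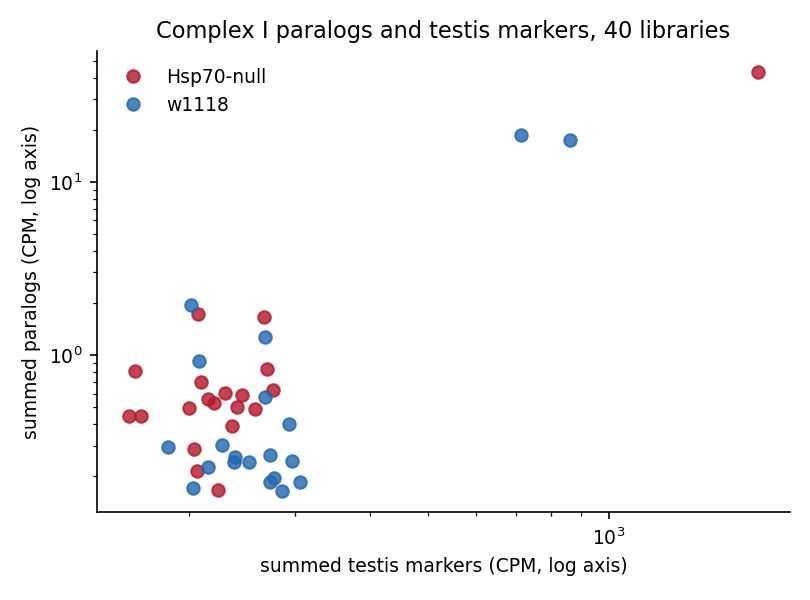
Summed level of the 6 paralogs against the summed level of 29 testis markers (CPM, both axes log) in the 40 libraries, with Hsp70-null in red and w1118 in blue. In 3 libraries both sums are high (17.5 to 43.3 CPM of paralogs), and the other 37 lie at 0.163 to 1.96 CPM of paralogs. The marker bol alone has a median of 207.1 CPM in the other 37, where the marker sum has a median of 235.5 CPM.

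The largest counts of the widely expressed genes were close to their main values without those 3 libraries. At day 47 against day 7, 32 were called lower in w1118 and 19 in Hsp70-null, and 21 were called higher in Hsp70-null than in w1118 at day 47. Strains in exercised flies differed in 5 in place of 7 genes, and strain by age was called in 1 in place of 2. The count for Hsp70-null at day 23 against day 7 was 10 in place of 22 called lower (median -0.37), while the calls over all features in that comparison were 914 in place of 2234.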

How the data were processed

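Per the labels, legs of 15 male flies per pool were used for strand-specific poly(A) libraries, with 4 pools in each of 10 groups. Nothing says how far pools shared a culture, so p-values measure the spread between these pools. The authors deposited 1 table of raw read counts per feature, not normalized. The submitters' processing notes name HISAT2 2.1.0, kallisto 0.44.0 and the genome build BDGP6, with no role for each. The counting tool and annotation are not given in the sources used here. All 40 columns matched 1 sample title each. Within groups, 60 pairs of replicates had a chi-square per degree of freedom of 23.7 to 314, so none was counted as a copy.

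Counts were tested with edgeR 4.0.16 under R 4.3.3 (TMM scaling, filterByExpr, quasi-likelihood F test) in a single model of 10 group means over the 40 libraries, which leaves 30 residual degrees of freedom. Benjamini-Hochberg adjustment covered 12939 features in each of 18 comparisons, and genes under 0.05 were called. Standard errors come from the log2 fold change and the F statistic (its size over the root of F). The fit was tested on simulated data with changed genes of known size. CPM are counts over the scaled library size, and exon lengths and coordinates were looked up by FlyBase ID in Ensembl BDGP6.54. Counts carry no molecular identifiers, and depth cannot be told apart from the oldest age.

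The members and gene lists were chosen with earlier results of these data known. Names ending in L as written would put ND-MNLL, a widely expressed subunit, among the paralogs and leave out ND-51L1 and ND-51L2, so a paralog was taken as a symbol that becomes another member's symbol once L or L and a digit is removed. Subunit roles follow the mammalian homologs, and all 34 homolog names are listed as synonyms in RefSeq. Named genes are the paralogs, the core subunits, up to 5 called genes per comparison and direction by p-value, genes called with 1 sign between strains at all 3 ages (there were none) or for strain by age, the highest and lowest per kilobase, and genes called against the members' median; a core subunit and a paralog are in the counts, and their own values are not reported here. Marker lists for testis, leg and flight muscle, sarcomere, nerve, gut, fat body, accessory gland, eye and blood cells were summed per library; testis, eye and accessory gland sums chose the libraries left out in 2 alternatives added after seeing the data. The other alternatives were RLE size factors, DESeq2 1.42.0, no filter, the compared groups fitted alone, the replicate number as a block, and leaving out each library.

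Groups share replicate numbers, and the labels do not say that these pair pools. Deviations of same-numbered libraries correlated at over 0.1 in every pair only for strains compared in trained flies (0.12 to 0.47) and for training in w1118 (0.10 to 0.73), so the numbers count as pairs there; no member was called in these 2 comparisons with the replicate block or without it.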

Additional observations from a re-analysis of the deposited data

Results flagged for a closer look

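The values of 10 quantities (the summed nuclear, mitochondrially encoded and paralog levels, 6 core subunits and ND-B8) were examined for libraries far from the other 3 of their group, in 10 groups, with a Dixon test. Chance flags about 1 in 20 groups. In w1118 at day 23, replicate 2 stood above the others in the complex I sum (10140 CPM, others 7427 to 7755), ND-24 (357.2 CPM, others 270.3 to 281.1), ND-23 (523.2 CPM, others 368.6 to 389.9) and ND-20 (509.2 CPM, others 336.9 to 364.2). In trained Hsp70-null flies, replicate 1 stood below the others in the complex I sum (5996 CPM, others 7653 to 7785) and in ND-24 (236.6 CPM, others 312.7 to 324.2), and replicate 2 above them in ND-B8 (2.529 CPM, others 1.362 to 1.542).

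The paralog sum stood out in the 3 libraries with high testis markers: 43.26 CPM in Hsp70-null day 7 replicate 2 (others 0.2148 to 0.8283), 17.45 CPM in w1118 day 7 exercised replicate 1 (others 0.243 to 0.4019) and 18.71 CPM in w1118 day 23 trained replicate 1 (others 0.1632 to 0.3036). It also stood out in w1118 day 23 replicate 1, at 1.279 CPM (others 0.1704 to 0.2428).

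Effects that differed between strains by an interaction term in edgeR were the change from day 7 to day 47 of ND-B8 (difference of log2 fold changes 3.00, Hsp70-null minus w1118) and ND-23 (0.53), and the effect of exercise on ND-51L1 (-7.55). The value of ND-51L1 rests on the libraries with testis markers.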

How the results depend on the processing

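Of 151 calls of single genes among the 34 widely expressed genes, under 2281 alternatives, 1983 kept their side of the threshold, 298 lost it and 0 changed sign. The paralog ND-51L1 lost its call for strain at day 7 in 8 of 13 alternatives that could be fitted (0.76 to 5.33) and for strain by exercise in 5 of 21 (-7.95 to -1.22). The counts of members called at day 47 against day 7 in both strains, and for strain at day 47, stayed within 1.5 times of the main count under the 7 alternatives that do not leave out a single library.

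For strain at day 7, in place of 1 member, 3 were called with RLE size factors, 4 with DESeq2, 2 with no filter, 5 with the compared groups alone and 3 with the replicate block. With the compared groups alone, 0 in place of 4 were called for strain at day 23, 9 in place of 22 for Hsp70-null day 23 against day 7, 0 in place of 1 for day 47 against day 23, 4 in place of 9 for w1118 day 23 against day 7, 10 in place of 31 for day 47 against day 23, 1 in place of 0 for exercise in w1118 and 4 in place of 2 for strain by age. This setting leaves fewer libraries to estimate the spread. With no filter, 0 in place of 1 were called in Hsp70-null at day 47 against day 23 and 1 in place of 2 for strain by age, and the w1118 median at day 47 against day 7 was -0.68, while the median over all features shifted from 0.07 to 0.19. Strain by age had 6 calls with DESeq2, 5 with the replicate block, 1 without the 3 libraries with testis markers and 1 without the 8 libraries with testis, eye or accessory gland markers. Without the 3, or without the 8, Hsp70-null day 23 against day 7 had 10 calls, and strain in exercised flies had 1 without the 8. Where no cause is named, the cause was not tested.

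Leaving out single libraries gave 0 to 2 calls for strain at day 7 and 3 to 7 in exercised flies, with 0 to 5 at day 23 and 13 to 21 at day 47. In Hsp70-null it gave 10 to 23 for day 23 against day 7, 0 to 1 for day 47 against day 23 and 18 to 24 for day 47 against day 7. In w1118 these were 7 to 19, 22 to 33 and 31 to 32, and strain by age had 1 to 3. Exercise, training and their strain differences stayed at 0. The median strain difference at day 23 was -0.23 to 0.01, crossing 0 without w1118 replicate 2.

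Calls over all features moved by over 1.5 times in several comparisons. With DESeq2 they were 138 in place of 6 for training and 139 in place of 6 for exercise in Hsp70-null, 213 in place of 52 for exercise in w1118, 849 in place of 466 for Hsp70-null day 47 against day 23, 439 in place of 212 for strain by age and 243 in place of 1070 for strain by exercise. With the compared groups alone they were 1681 in place of 3341 for strain at day 7, 1529 in place of 2300 for strain at day 23, 499 in place of 2234 for Hsp70-null day 23 against day 7 577 in place of 1731 for w1118 day 47 against day 23, 1295 in place of 2016 for strain in trained flies, 134 in place of 212 for strain by age and 15 in place of 52 for exercise in w1118. Strain by age had 550 with the replicate block and 124 with no filter, and Hsp70-null day 23 against day 7 had 1481 with no filter. Strain by exercise had 0 in place of 1070 with the compared groups alone, without the 3 libraries with testis markers or without the 8. Without the 3 and without the 8, Hsp70-null day 23 against day 7 had 914 and 648, and strain at day 7 had 2002 and 1514. Without the 8, strain in exercised flies had 1492 in place of 2609, Hsp70-null day 47 against day 7 had 2219 in place of 3744, strain by age had 105 and exercise in w1118 had 15.

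Same-numbered libraries in the 2 groups of a contrast do not deviate together throughout: over the 60 pairs of the 15 contrasts the median correlation was 0.065 (-0.40 to 0.73, 24 over 0.1), against 0.002 between other numbers, and in no comparison did every library correlate best with its own number. With the replicate block the counts were 24 for strain at day 47, 8 in exercised flies, 23 for Hsp70-null day 23 and day 47 against day 7, and 12, 32 and 33 for the 3 w1118 steps in the order above. Low counts limit ND-B8 and the paralogs, and depth differs between day 47 and the earlier ages.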
